A study of Homo sapiens with 12 samples.

Results

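IDO1, WARS and the genes that link tryptophan breakdown to the aryl hydrocarbon receptor were followed in a pair of human melanoma cell lines given interferon gamma (IFN-γ), the cytokine released by activated T cells and NK cells. The 9 genes were taken by symbol from the gene count tables: IDO1, TDO2, AFMID, KYNU, KMO, WARS, AHR, AHRR and CYP1B1. All 9 had a row among the 44700 genes of the tables, and 8 of them were among the 15810 genes with enough counts to be tested. KMO was the one left out by the low-count filter.

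The 12 libraries form 4 groups of 3: SK-MEL-5 with IFN-γ at 150 ng/mL for 24 h, SK-MEL-5 untreated, MALME-3M with IFN-γ at 200 ng/mL for 24 h, and MALME-3M untreated. Both lines are labelled wild type, total RNA was extracted, and the library kit is given as Pico V3. The cells of a group were seeded in triplicate wells of one line, so the p-values below rest on how far such wells differ, a spread that may be technical. Line, IFN-γ dose and culture medium differ together, and their parts in any difference between the lines cannot be told apart.

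Gene counts totalled 15514412 to 22921184 per library. The 8 melanocyte markers looked up (MITF, SOX10, PMEL, MLANA, TYR, DCT, TYRP1, S100B) were detected in every group, at a summed level of 5743 to 6426 counts per 1e6 gene counts (CPM) per library. TYRP1 averaged 5.81 CPM in IFN-γ-treated and 6.88 CPM in untreated MALME-3M. Of 7 leukocyte markers, the highest was CD68, at group means of 20.0 to 212.8 CPM. The other leukocyte markers had group means of at most 0.875 CPM, and PTPRC had 0 counts in MALME-3M. Of 4 epithelial markers, CDH1 was the highest in MALME-3M, at a mean of 325.5 CPM in treated and 380.9 CPM in untreated cells. All 4 summed there to 320.7 to 364.6 CPM per library with IFN-γ and 399.1 to 401.5 CPM without. In SK-MEL-5 CDH1 averaged 0.511 CPM in treated and 4.05 CPM in untreated cells. The 6 interferon response genes looked up rose in both lines, among them the transcription factor gene IRF1, with a log2 fold change of 5.35 ± 0.11 in SK-MEL-5 and 6.43 ± 0.12 in MALME-3M (SE).

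As background, IDO1 and TDO2 are dioxygenases that open the indole ring of tryptophan, and the product is turned into kynurenine by the formamidase AFMID. Kynurenine is a ligand of AHR, a transcription factor that on binding its ligand pairs with ARNT and turns on genes such as CYP1B1 and AHRR. WARS charges tRNA with tryptophan and so draws on the same amino acid. IDO1 and WARS are both known as IFN-γ-inducible genes.

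Of the 8 tested genes, 2 rose in SK-MEL-5 with IFN-γ, IDO1 and WARS, and the other 6 did not pass the test. In that line 5.98% of all tested genes rose and 7.05% fell. In MALME-3M 4 of the 8 rose, IDO1, WARS, KYNU and AHRR, where 9.51% of all tested genes rose and 8.77% fell. A gene is said to rise or fall when its p, adjusted by Benjamini and Hochberg's method over the 15810 genes, was under 0.05 in edgeR's quasi-likelihood test. The RNA came from whole cultures, so fewer cells of a kind and less RNA per cell cannot be told apart.

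**Figure D1:**
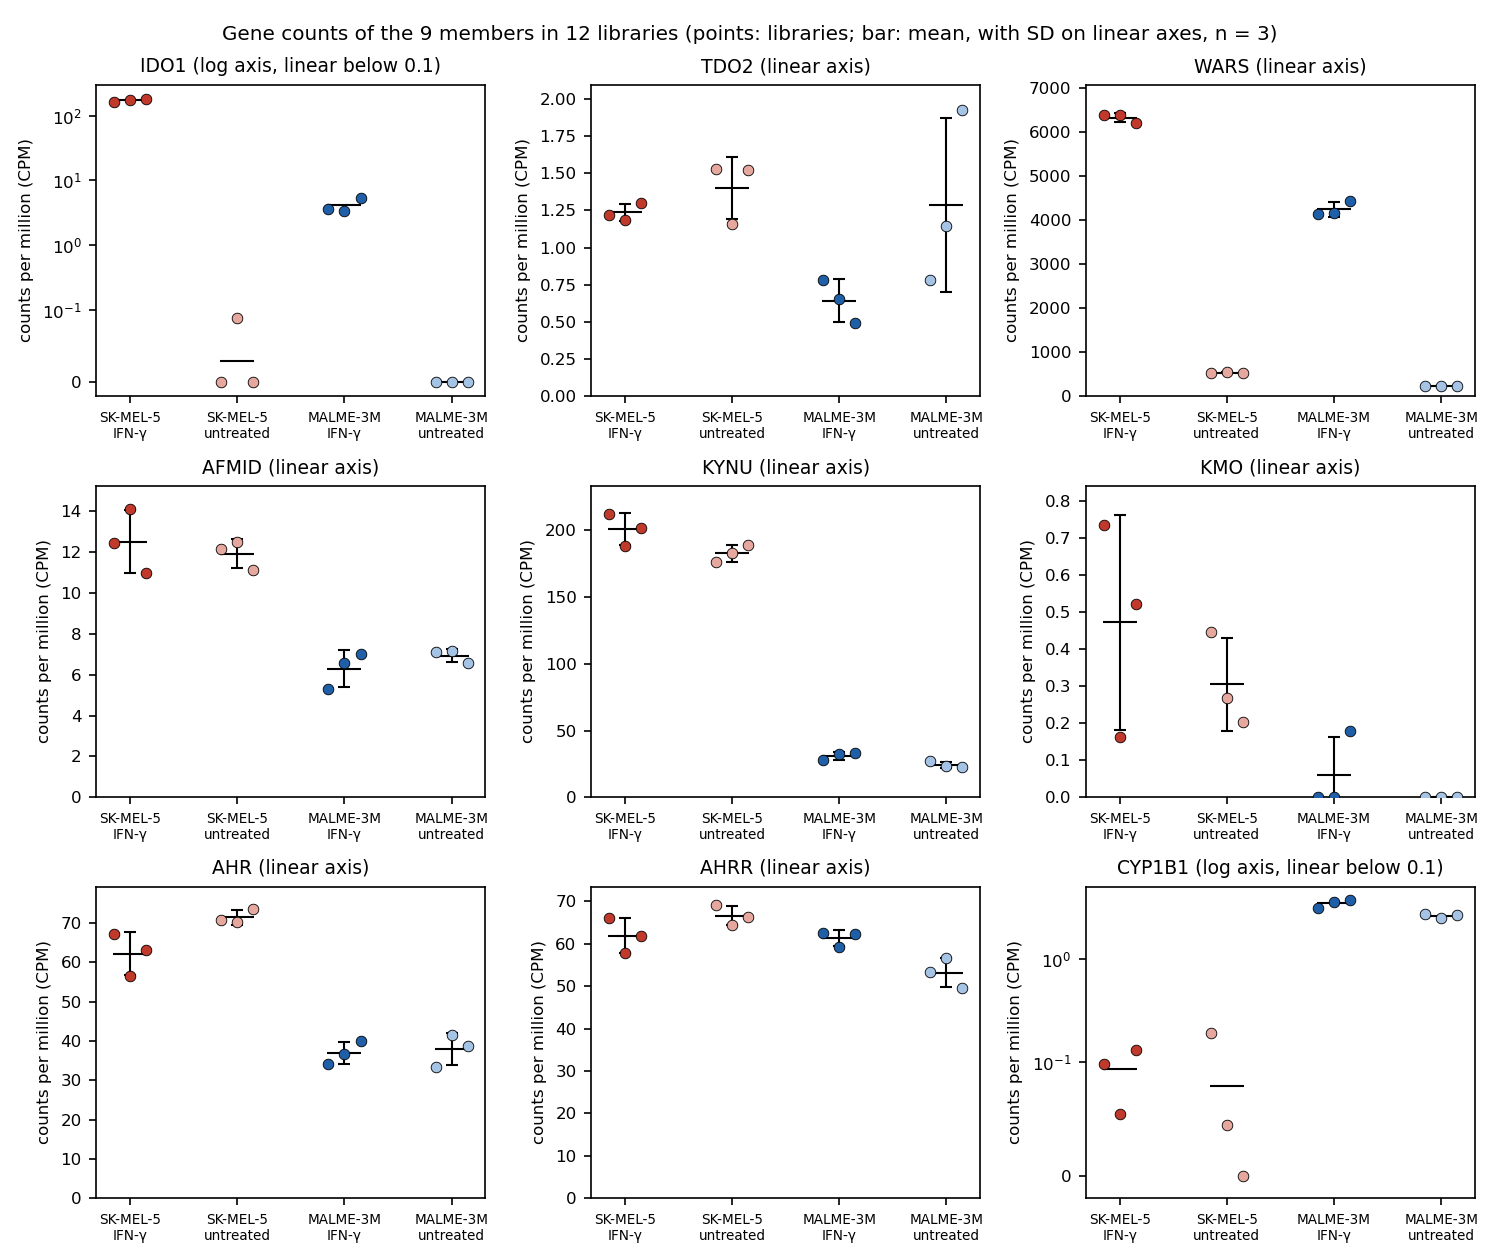
Gene counts per 1e6 (CPM) of the 9 genes in each of the 12 libraries, with the IFN-γ-treated group of each line left of its untreated group. Points are libraries and horizontal bars group means, with SD (n = 3) on the linear axes. WARS stood at 6197 to 6391 CPM in treated and 527 to 557 CPM in untreated SK-MEL-5, while TDO2, AFMID and AHR show shifts that did not pass the test in either line.

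IDO1 was close to absent without IFN-γ and present in both lines with it. The gene lies on chromosome 8 at positions 39902275 to 39928444 of GRCh38, on the plus strand. Treated SK-MEL-5 libraries held 3272, 3197 and 2804 IDO1 counts, against 0, 2 and 0 in untreated SK-MEL-5. Treated MALME-3M libraries held 60, 72 and 119, against 0, 0 and 0 in untreated MALME-3M. The treated and untreated groups did not overlap in either line.

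Pooled over the 3 libraries of a group and scaled to library size, IDO1 was 4937.5 times as abundant in treated as in untreated SK-MEL-5, with a 95% Clopper-Pearson interval of 1366.5 to 40777 that covers counting error only. In MALME-3M the treated group was at least 72.8-fold higher, taking 3 counts over the untreated group as the floor. Both changes passed edgeR's quasi-likelihood test, with an adjusted p of 4.6e-16 in SK-MEL-5 and 3.04e-09 in MALME-3M. IDO1 met the low-count filter only through the treated groups, so these p-values add no support beyond the counts themselves. These folds rest on untreated groups of 2 and 0 counts, so the edgeR test of the difference between the lines' changes (adjusted p = 0.944) has no usable error for IDO1.

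Between the treated groups the difference could be measured. IDO1 stood at 3.61, 3.37 and 5.34 CPM in treated MALME-3M, against 160.0, 172.1 and 182.6 CPM in treated SK-MEL-5. Every treated MALME-3M library was far below every treated SK-MEL-5 library, with a log2 fold change of -5.37 ± 0.13 (SE, adjusted p = 6.83e-16 by edgeR's quasi-likelihood test).

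The transcript tables hold 9 annotated IDO1 transcripts. IDO1-207 carried most of their estimated counts, 69.2% to 76.8% per library in SK-MEL-5 with IFN-γ and 90.1% to 99.3% in MALME-3M with it. IDO1-201, annotated as a target of nonsense-mediated decay, held 348.0, 418.1 and 257.1 estimated counts in treated SK-MEL-5, or 20.1% ± 3.9 (SD, n = 3). The annotated IDO1 transcripts of treated MALME-3M summed to only 39, 30 and 42 estimated counts, so a minor transcript was hardly detectable there.

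TDO2, the other dioxygenase, was low in all 12 libraries and did not follow IDO1. It stood at 1.22, 1.18 and 1.30 CPM in treated SK-MEL-5, against 1.53, 1.16 and 1.52 CPM in untreated SK-MEL-5. In MALME-3M it stood at 0.781, 0.656 and 0.494 CPM with IFN-γ, against 0.782, 1.15 and 1.93 CPM without. The SK-MEL-5 groups overlapped and the MALME-3M groups met at 0.78 CPM. Neither change passed edgeR's quasi-likelihood test, at a log2 fold change of -0.17 ± 0.34 in SK-MEL-5 (SE, adjusted p = 0.822) and -1.02 ± 0.37 in MALME-3M (SE, adjusted p = 0.0647). Without untreated MALME-3M replicate 1, the MALME-3M value was -1.27 with an adjusted p of 0.0293 by the same edgeR test. Without untreated MALME-3M replicate 3 it was -0.595 (adjusted p = 0.38) and without treated MALME-3M replicate 3 it was -0.88 (adjusted p = 0.19), so size and call both turn on single libraries.

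AFMID, the formamidase that yields kynurenine, did not pass the test for IFN-γ in either line. Its level was 12.5, 14.1 and 11.0 CPM in treated SK-MEL-5, against 12.1, 12.5 and 11.2 CPM in untreated SK-MEL-5. In MALME-3M it was 5.29, 6.56 and 7.04 CPM with IFN-γ, against 7.10, 7.17 and 6.56 CPM without. Treated and untreated libraries overlapped in both lines, and the log2 fold changes were 0.07 ± 0.13 in SK-MEL-5 and -0.13 ± 0.14 in MALME-3M (SE).

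KYNU, the kynureninase that cleaves kynurenine and hydroxykynurenine, was far higher in SK-MEL-5, and IFN-γ raised it in MALME-3M. It stood at 212.3, 189 and 202 CPM in treated SK-MEL-5, against 176, 183 and 189 CPM in untreated SK-MEL-5. In MALME-3M it stood at 27.6, 32.3 and 33.0 CPM with IFN-γ, against 27.0, 23.7 and 22.9 CPM without. The MALME-3M groups did not overlap, though the lowest treated library lay just above the highest untreated one, while the SK-MEL-5 groups met at 189 CPM.

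The KYNU change in MALME-3M was a log2 fold change of 0.34 ± 0.08 (SE), or 1.27-fold, with an adjusted p of 0.00377 by edgeR's quasi-likelihood test. In SK-MEL-5 it was 0.14 ± 0.07 (SE, adjusted p = 0.226). The difference between the lines' changes did not pass the edgeR test (0.20 ± 0.10 on the log2 scale, SE, adjusted p = 0.339). On the estimated counts of annotated KYNU transcripts, which came to 25.3% to 28.3% of the gene counts, the MALME-3M change was 0.24 with an adjusted p of 0.544 by edgeR's quasi-likelihood test.

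KMO, the monooxygenase that makes hydroxykynurenine, was at the edge of detection. Its counts were 15, 3 and 8 in treated SK-MEL-5, against 7, 6 and 4 in untreated SK-MEL-5. In MALME-3M they were 0, 0 and 4 with IFN-γ, against 0, 0 and 0 without. The SK-MEL-5 groups overlapped, and their pooled ratio of 1.63 had a 95% Clopper-Pearson interval of 0.851 to 3.20. At this depth 3 counts over a group of MALME-3M correspond to 0.0498 CPM with IFN-γ and 0.0572 CPM without.

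WARS, the cytosolic tryptophanyl-tRNA synthetase, rose in both lines and by more in MALME-3M. It lies on chromosome 14 at positions 100333788 to 100376805 of GRCh38, on the minus strand. Its level was 6391, 6372 and 6197 CPM in treated SK-MEL-5, against 531, 557 and 527 CPM in untreated SK-MEL-5. In MALME-3M it was 4142, 4155 and 4437 CPM with IFN-γ, against 240.4, 236 and 239 CPM without. Within each line the treated libraries were all far above the untreated ones, and at either condition every MALME-3M library was below every SK-MEL-5 library.

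RefSeq lists a pair of WARS start sites on this strand, 980 bases apart. The transcripts that start within 500 bases of each behaved differently below. The 250 bases before each start are printed because they differ in the interferon-type element they hold. Both are read 5′ to 3′ on the minus strand of GRCh38.p14 from RefSeq, at chr14:100375348-100375597 for the downstream start and chr14:100376328-100376577 for the upstream start. Capitals mark the core of an interferon-stimulated response element (ISRE), which is GAAA, any pair of bases (NN) and GAAA, searched on both strands.
WARS downstream start: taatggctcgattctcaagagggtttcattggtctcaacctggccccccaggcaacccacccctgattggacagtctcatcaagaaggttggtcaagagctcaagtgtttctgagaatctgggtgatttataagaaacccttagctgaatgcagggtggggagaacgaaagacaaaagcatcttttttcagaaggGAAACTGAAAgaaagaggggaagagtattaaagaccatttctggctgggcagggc
WARS upstream start: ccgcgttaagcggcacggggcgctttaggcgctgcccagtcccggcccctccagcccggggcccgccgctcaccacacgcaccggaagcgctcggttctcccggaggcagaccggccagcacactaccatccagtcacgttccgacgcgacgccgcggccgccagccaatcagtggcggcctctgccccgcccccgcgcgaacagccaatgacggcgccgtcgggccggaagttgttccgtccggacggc

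The downstream WARS promoter held GAAACTGAAA at 55 to 46 bases before the start. It also held TTCTGAGAA, a match to TTCNNNGAA, the core of the gamma-activated sequence, an interferon-responsive element, at 142 to 134 bases before the start. Neither core was found in the upstream promoter. Over all 35116 promoters of the same length in the RefSeq table, 3.02% held the ISRE core and 6.57% held TTCNNNGAA on either strand. A match describes these letters and does not show that a factor was bound.

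The WARS gene counts rose 11.7-fold in SK-MEL-5, a log2 fold change of 3.55 ± 0.04 (SE, adjusted p = 1.52e-20 by edgeR's quasi-likelihood test). In MALME-3M they rose 17.8-fold, a log2 fold change of 4.15 ± 0.04 (SE, adjusted p = 1.15e-21 by the same edgeR test). The change was larger in MALME-3M by 0.60 ± 0.06 on the log2 scale (SE, adjusted p = 1.56e-06 by edgeR's quasi-likelihood test). Of the 8 tested genes, 2 (WARS and AHRR) had a higher change in MALME-3M than in SK-MEL-5, where 2.67% of all tested genes did and 1.79% had a lower one. On the estimated counts of annotated transcripts the WARS log2 fold change was 2.37 in SK-MEL-5 and 3.05 in MALME-3M.

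Estimated counts of 44 annotated WARS transcripts were grouped by start site, with those within 500 bases of the upstream start (18 transcripts), within 500 bases of the downstream start (21), and elsewhere (5). In SK-MEL-5 the downstream start held 28.9%, 29.3% and 33.3% of annotated WARS estimated counts with IFN-γ, against 18.1%, 15.3% and 14.9% without. In MALME-3M it held 48.0%, 47.5% and 48.0% with IFN-γ, against 9.05%, 14% and 15.9% without. All treated libraries lay above all untreated ones in each line. The 2-sided exact permutation p was 0.1 in each line, the smallest that 3 libraries against 3 allow.

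The upstream share moved the other way, at 46.0% ± 2.5 in treated and 79% ± 0.92 in untreated SK-MEL-5 (SD, n = 3 each), and at 38.0% ± 0.78 in treated and 81.3% ± 2.7 in untreated MALME-3M. Per 1e6 annotated estimated counts, transcripts from both starts and from elsewhere were higher with IFN-γ. The downstream transcripts were at 9.50 times the untreated level in SK-MEL-5 and 30.6 times in MALME-3M, and the upstream ones at 2.91 times and 3.89 times. The 5 transcripts that start elsewhere averaged 391.7 per 1e6 in treated and 16.5 in untreated SK-MEL-5, and 273.8 in treated and 13.3 in untreated MALME-3M. Their share was 23.5% ± 1.1 in treated and 4.88% ± 1.3 in untreated SK-MEL-5 (SD, n = 3 each), so in that line the downstream start was not the one with the highest ratio. Most of it was WARS-220, annotated as a retained intron.

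Single transcripts differed between the lines. WARS-238 from the downstream start held 29.3% ± 0.63 of annotated WARS estimated counts in treated and 2.68% ± 2.4 in untreated MALME-3M, but 3.17% ± 0.30 in treated and 0.305% ± 0.53 in untreated SK-MEL-5 (SD, n = 3 each). WARS-201, also counted with the downstream start, held 23.6% ± 1.4 in treated and 10.9% ± 1.6 in untreated SK-MEL-5. In MALME-3M it held 14% ± 0.39 in treated and 1.35% ± 1.8 in untreated cells. WARS-238 starts at position 100375347, directly after the printed downstream window. WARS-201 starts at 100375608, upstream of that whole window, so the window is not the stretch before its start. In treated SK-MEL-5 WARS-201 made up most of the downstream share, which averaged 30.5%. Whether the printed window had a part in the downstream rise of either line was not tested. WARS-203 from the upstream start held 39.4% ± 2.3 in treated and 69.8% ± 1.4 in untreated SK-MEL-5, and 33.8% ± 1.5 in treated and 71.0% ± 1.7 in untreated MALME-3M.

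**Figure D2:**
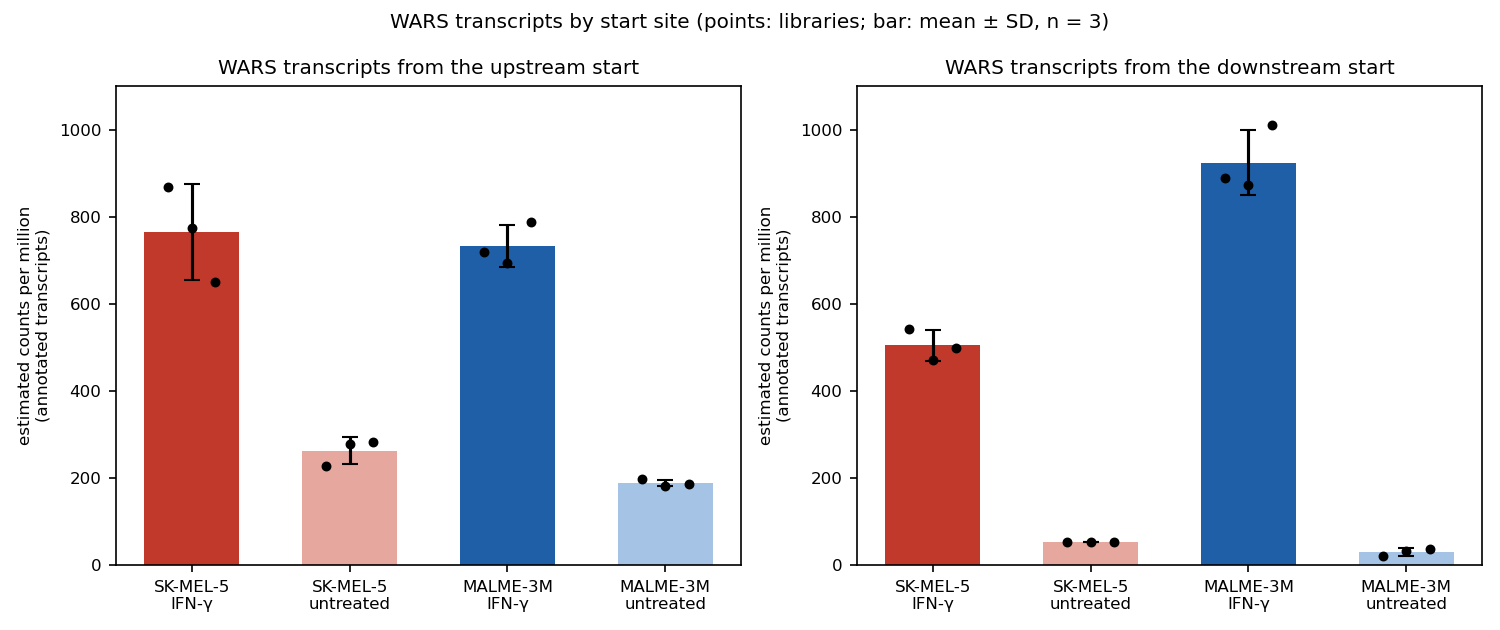
Estimated counts per 1e6 of annotated WARS transcripts that start within 500 bases of the upstream site (left panel) or the downstream site (right panel), in the 4 groups. Bars are means with SD (n = 3) and points are libraries. The downstream transcripts averaged 504.3 per 1e6 in treated and 53.1 in untreated SK-MEL-5, and 924.0 per 1e6 in treated and 30.2 in untreated MALME-3M.

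Annotated WARS transcripts held only part of the reads. Their estimated counts came to 12.1% of the WARS gene counts in treated and 27.5% in untreated SK-MEL-5, and to 20.5% in treated and 44.8% in untreated MALME-3M. The share tied to annotation was thus lower with IFN-γ in both lines, and its part in the start-site shares was not tested. WDR25, a gene on the opposite strand that overlaps the WARS start, stood at 26.2 ± 4.4 CPM in treated and 7.71 ± 0.32 CPM in untreated SK-MEL-5 (SD, n = 3 each). In MALME-3M it stood at 7.88 ± 0.22 CPM with IFN-γ and 3.88 ± 0.55 CPM without. Its log2 fold changes were 1.76 ± 0.13 and 1.02 ± 0.15 (SE). The strand setting of the counting is not given in the sources used here, so reads of WARS and WDR25 cannot be told apart in their overlap.

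Small changes were seen beside WARS in the other 19 cytosolic aminoacyl-tRNA synthetase genes, whose enzymes charge tRNAs with the other amino acids. Their log2 fold changes ran from -0.17 to 0.38 in SK-MEL-5, where only CARS rose (0.38 ± 0.06, SE), and from -0.26 to 0.32 in MALME-3M, where KARS rose (0.32 ± 0.06, SE) and 6 fell (8.77% of all tested genes fell there), IARS by the most (-0.26 ± 0.04, SE). The median over the 20 genes was -0.06 in SK-MEL-5 and -0.13 in MALME-3M, beside -0.03 and 0.00 over all tested genes. As a share of the counts of all 20 genes, WARS took 63.7% ± 0.22 in treated and 12.7% ± 0.16 in untreated SK-MEL-5 (SD, n = 3 each). In MALME-3M it took 62.6% ± 0.88 with IFN-γ and 8.04% ± 0.18 without. These are shares of counts, not of molecules, since they are not corrected for gene length.

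**Figure D3:**
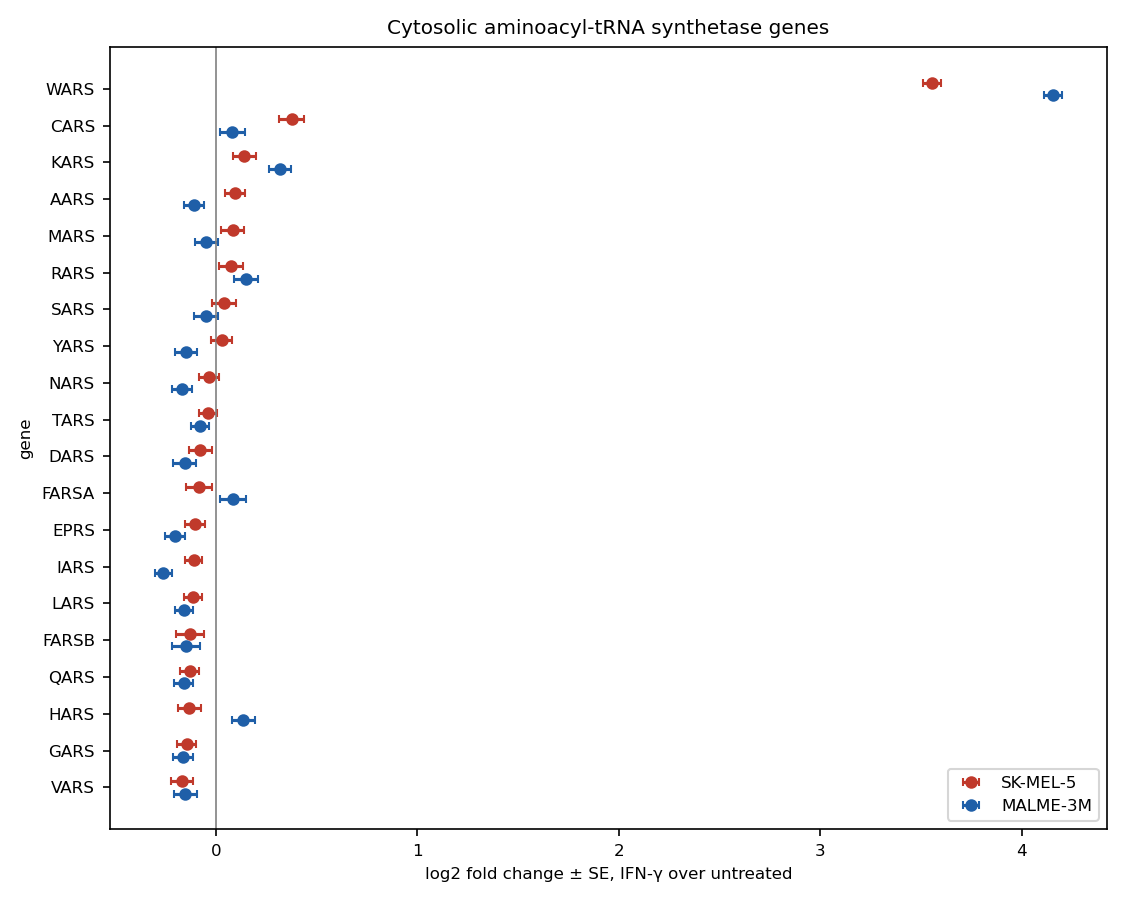
Log2 fold change ± SE, IFN-γ over untreated, of the 20 cytosolic aminoacyl-tRNA synthetase genes in SK-MEL-5 (upper point of each pair) and MALME-3M (lower point). WARS lies at 3.55 and 4.15, and the other 19 lie between -0.26 and 0.38.

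AHR, the receptor itself, did not pass the test for IFN-γ in either line. It stood at 67.2, 56.4 and 63.0 CPM in treated SK-MEL-5, against 70.7, 70.1 and 73.5 CPM in untreated SK-MEL-5. In MALME-3M it stood at 34.3, 36.7 and 39.9 CPM with IFN-γ, against 33.5, 41.5 and 38.7 CPM without. The SK-MEL-5 groups did not overlap, with a log2 fold change of -0.20 ± 0.08 (SE, adjusted p = 0.11 by edgeR's quasi-likelihood test), and the MALME-3M groups did, at -0.04 ± 0.08 (SE). AHR-202, annotated as a target of nonsense-mediated decay, held 46.4% ± 4.5 of annotated AHR estimated counts in treated and 66.2% ± 8.1 in untreated SK-MEL-5, while in MALME-3M it held 55.5% ± 8.3 with IFN-γ and 42.0% ± 4.7 without (SD, n = 3).

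AHRR encodes a repressor that competes with AHR for its partner, and AHR induces it. Its gene count stood at 66.0, 57.7 and 61.8 CPM in treated SK-MEL-5, against 69.0, 64.4 and 66.3 CPM in untreated SK-MEL-5. In MALME-3M it stood at 62.6, 59.3 and 62.2 CPM with IFN-γ, against 53.3, 56.6 and 49.7 CPM without. The SK-MEL-5 groups overlapped and the MALME-3M groups did not.

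The log2 fold change of the AHRR gene count was 0.21 ± 0.06 in MALME-3M (SE, adjusted p = 0.0248) and -0.11 ± 0.06 in SK-MEL-5 (SE, adjusted p = 0.314) by edgeR's quasi-likelihood test. The change was higher in MALME-3M by 0.31 ± 0.09 (SE, adjusted p = 0.048 by the same edgeR test). The MALME-3M call was lost when untreated replicate 1 or 3, or treated replicate 1 or 3, was left out, at adjusted p-values of 0.0536 to 0.133 in edgeR. The call on the difference was lost under every other scaling, filter and tool tried, at adjusted p-values of 0.0523 to 0.195, and when any of 10 of the 12 libraries was left out.

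The AHRR gene count is also uncertain in what it counts. The 11 annotated AHRR transcripts held estimated counts equal to 3.63% to 6.05% of the AHRR gene counts, by group. AHRR, on chromosome 5 at positions 304176 to 438291, overlaps PDCD6 at 271621 to 353856 on the same strand. The estimated counts of annotated PDCD6 transcripts came to 283.8% to 302.8% of the PDCD6 gene counts. PDCD6 itself stood at 15.9 ± 0.74 CPM in treated and 13.2 ± 0.87 CPM in untreated MALME-3M (SD, n = 3 each). How reads of the overlap were assigned was not tested.

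CYP1B1, a monooxygenase gene that AHR turns on, was found mostly in MALME-3M. Its counts were 2, 1 and 2 in treated SK-MEL-5, against 3, 1 and 0 in untreated SK-MEL-5, and 53, 78 and 84 in treated MALME-3M, against 46, 42 and 52 in untreated MALME-3M. In CPM the MALME-3M libraries stood at 3.19, 3.65 and 3.77 with IFN-γ, against 2.77, 2.53 and 2.71 without. These MALME-3M groups did not overlap, but the log2 fold change of 0.41 ± 0.27 did not pass edgeR's quasi-likelihood test (SE, adjusted p = 0.354). The annotated CYP1B1 transcripts of MALME-3M summed to 56, 52 and 57 estimated counts with IFN-γ, against 14, 14 and 0 without. These sums equal 77.0% of the CYP1B1 gene counts in treated and 20.1% in untreated MALME-3M. Their change thus also holds a change in the share tied to annotation, whose part was not tested.

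Of 10 listed AHR target genes, 5 could be tested: AHRR, CYP1B1, TIPARP, NQO1 and CYP1A1. In SK-MEL-5 0 of the 5 passed edgeR's quasi-likelihood test, 1 rose at an unadjusted p under 0.05 (CYP1A1, log2 fold change 0.55 ± 0.18, SE, adjusted p = 0.0566), and DESeq2 also called 0. In MALME-3M only AHRR rose, by the call given above as lost when some single libraries were left out. Over all tested genes, 5.98% rose in SK-MEL-5 and 9.51% in MALME-3M. TIPARP, a feedback inhibitor of AHR, had log2 fold changes of -0.02 ± 0.06 in SK-MEL-5 and 0.02 ± 0.06 in MALME-3M, and NQO1, a quinone reductase, had 0.00 ± 0.04 and -0.05 ± 0.04 (SE). The medians of the 5 were 0.00 in SK-MEL-5 and 0.02 in MALME-3M, beside -0.03 and 0.00 over all tested genes.

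Of the 9 genes listed for the AHR complex, which include AHR, AHRR and the ARNT partners, 1 fell in SK-MEL-5 and 0 rose. In MALME-3M 3 fell and 1 rose, AHRR. Over all tested genes 7.05% fell in SK-MEL-5 and 8.77% in MALME-3M. The chaperone gene HSP90AA1 fell in both lines, by 0.21 ± 0.06 on the log2 scale in SK-MEL-5 (SE, adjusted p = 0.0285 by edgeR's quasi-likelihood test) and by 0.37 ± 0.06 in MALME-3M (SE). Its SK-MEL-5 groups overlapped, with a treated library at 9810 CPM and an untreated one at 9727 CPM. HSP90AB1 fell by 0.26 and PTGES3, which encodes the p23 cochaperone, by 0.21 in MALME-3M. ARNT, the DNA-binding partner of AHR, had log2 fold changes of -0.06 ± 0.05 in SK-MEL-5 and 0.02 ± 0.05 in MALME-3M (SE).

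Promoters of 7 of the 9 genes were searched in the RefSeq table, and those of IDO1 and CYP1B1 were not. GCGTG, the core of the xenobiotic response element to which AHR and ARNT bind, occurred in both listed AHRR promoters, in the AFMID promoter and in the upstream WARS promoter, and 32.2% of all 35116 promoters held it on either strand. The listed AHRR promoters precede starts at positions 321714 and 322610. AHRR-201, with group means of 51.6% to 60.2% of annotated AHRR estimated counts, starts at 304176, and the bases before that start were not searched. The KYNU promoter held TTCTTTGAA, a match to TTCNNNGAA, at 34 to 26 bases before the start. No listed core was found in the TDO2, KMO or AHR windows.

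Of 9 enzymes listed after kynurenine, 6 could be tested. AADAT, an aminotransferase that turns kynurenine into kynurenic acid, rose in both lines: it averaged 56.1 ± 0.34 CPM in treated and 43.2 ± 1.3 CPM in untreated SK-MEL-5, and 16.9 ± 0.87 CPM in treated and 11.2 ± 0.96 CPM in untreated MALME-3M (SD, n = 3 each). Its log2 fold changes were 0.38 ± 0.07 and 0.60 ± 0.08 (SE). GOT2, a mitochondrial aminotransferase, fell by 0.30 on the log2 scale in SK-MEL-5. QPRT, which carries quinolinate into NAD synthesis, fell by 0.49 in MALME-3M, to 3.52 ± 0.23 CPM with IFN-γ, against 4.91 ± 0.24 CPM without. NAMPT, the rate-limiting enzyme of NAD salvage from nicotinamide, rose in both lines, by 0.57 ± 0.04 in SK-MEL-5 and 0.64 ± 0.04 in MALME-3M on the log2 scale (SE).

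Of 8 listed carriers of tryptophan or kynurenine, 6 could be tested. SLC7A5 and SLC3A2, which form the large neutral amino acid transporter that carries tryptophan, rose in SK-MEL-5 by 0.26 ± 0.06 and 0.23 ± 0.05 on the log2 scale (SE). SLC7A8, the light chain of a related transporter, averaged 66.7 ± 13 CPM in treated and 33.3 ± 1.1 CPM in untreated MALME-3M (SD, n = 3 each), a log2 fold change of 1.00 ± 0.10 (SE). SLC7A11, the light chain of the cystine and glutamate exchanger, fell in both lines. It averaged 42.2 ± 1.0 CPM in treated and 65.0 ± 4.8 CPM in untreated SK-MEL-5, and 12 ± 0.75 CPM in treated and 37.5 ± 4.3 CPM in untreated MALME-3M (SD, n = 3 each).

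Shortage of an amino acid is sensed by the kinase GCN2, which acts through the transcription factor ATF4. Of 8 genes listed for that response, 4 rose in SK-MEL-5, where 5.98% of all tested genes did. CHAC1, a glutathione-degrading enzyme gene, averaged 7.74 ± 0.99 CPM in treated and 2.30 ± 0.98 CPM in untreated SK-MEL-5 (SD, n = 3 each), a log2 fold change of 1.77 ± 0.28 (SE). ASNS, the asparagine synthetase gene, rose by 0.43 ± 0.07, TRIB3 by 0.39 ± 0.10 and ATF3 by 0.38 ± 0.12 on the log2 scale (SE). In MALME-3M ATF3 alone rose, by 1.84 ± 0.20 (SE), where 9.51% of all tested genes rose. The difference between the lines' changes passed edgeR's quasi-likelihood test for ASNS and ATF3, in opposite directions. It did not pass that test for CHAC1 (-1.40 ± 0.46, SE, adjusted p = 0.103) or TRIB3 (-0.36 ± 0.14, SE, adjusted p = 0.175). The medians of the 8 were 0.29 in SK-MEL-5 and -0.01 in MALME-3M, beside -0.03 and 0.00 over all tested genes.

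**Figure D4:**
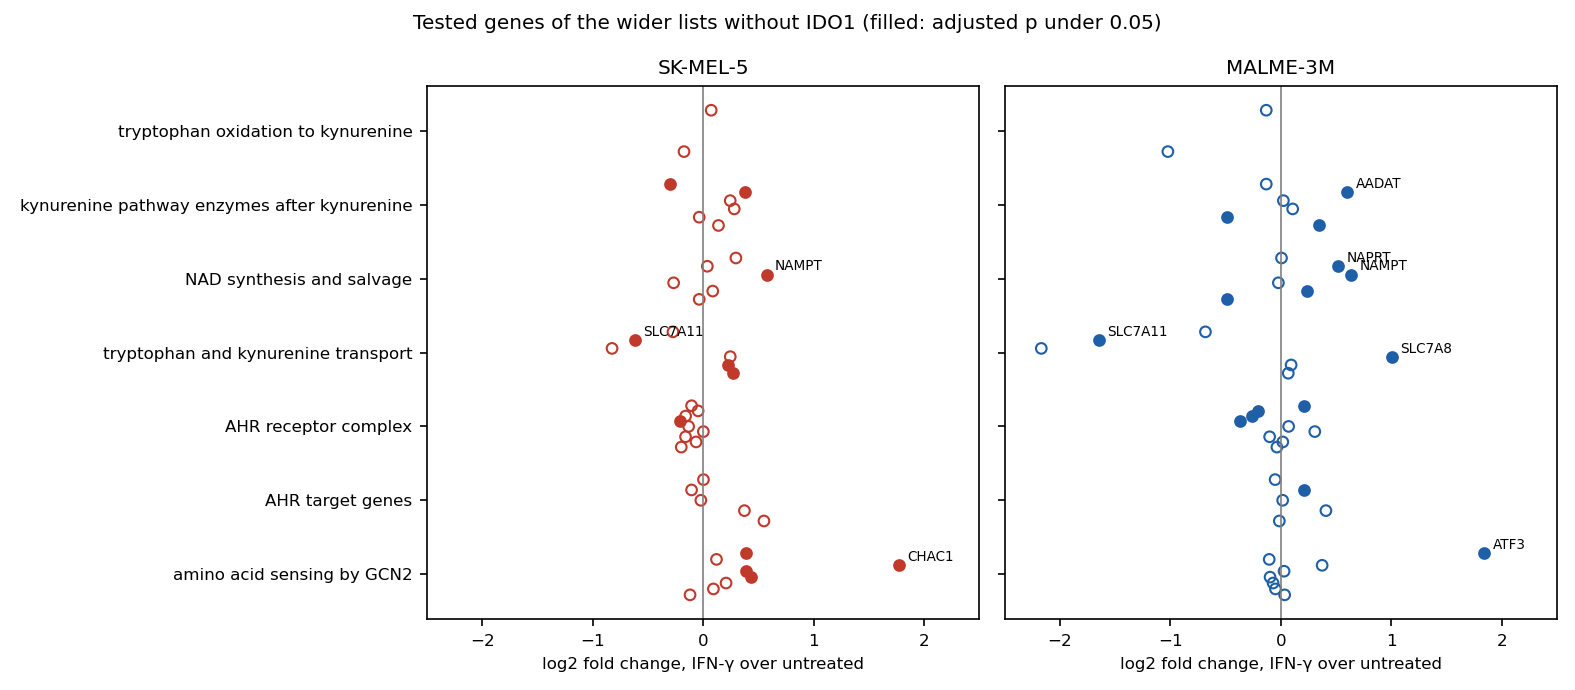
Log2 fold changes, IFN-γ over untreated, of the tested genes of 7 lists around tryptophan, kynurenine and AHR in SK-MEL-5 (left) and MALME-3M (right), without IDO1. Filled points passed the test at an adjusted p under 0.05, and those with an absolute change of at least 0.5 are named. CHAC1 in SK-MEL-5 (1.77) and ATF3 in MALME-3M (1.84) are the highest filled points and SLC7A11 in MALME-3M (-1.65) the lowest.

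Most of the tested genes differed between the lines, as did most genes of the tables that could be tested. With untreated MALME-3M set against the untreated SK-MEL-5 cells, 1 of the 8 tested genes was higher and 5 were lower, where 34.5% of all tested genes were higher and 37.2% lower. With treated MALME-3M set against the treated SK-MEL-5 cells, 1 was higher and 6 were lower, where 35.4% of all tested genes were higher and 36.4% lower.

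CYP1B1 was the gene higher in MALME-3M, at 38.7 times the SK-MEL-5 level without IFN-γ (95% Clopper-Pearson interval 14.8 to 143.9, counting error only) and 38.8 times with it (16.4 to 120.7). KYNU was lower in MALME-3M by a log2 fold change of -2.90 ± 0.08 without and -2.69 ± 0.08 with IFN-γ (SE). AHR was lower there by -0.91 ± 0.08 without and -0.75 ± 0.08 with IFN-γ, and AFMID by -0.78 ± 0.13 and -0.99 ± 0.13 (SE).

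WARS was lower in MALME-3M by a log2 fold change of -1.17 ± 0.04 without and -0.57 ± 0.04 with IFN-γ (SE), but its annotated transcripts gave 0.22 with IFN-γ (adjusted p = 0.0553 by edgeR's quasi-likelihood test). AHRR was lower without IFN-γ (-0.32 ± 0.06, SE) and not called with it (-0.01 ± 0.06, SE). With IFN-γ, TDO2 was lower in MALME-3M (-0.95 ± 0.37, SE, adjusted p = 0.0289 by edgeR's quasi-likelihood test). That call was lost when treated SK-MEL-5 replicate 1 or 3 or treated MALME-3M replicate 2 or 3 was left out, at adjusted p-values of 0.0544 to 0.1 in edgeR, and without the low-count filter (adjusted p = 0.062). TDO2 was not called between the untreated lines (-0.10 ± 0.34, SE), and the change of the line difference with IFN-γ did not pass the test (adjusted p = 0.434 by edgeR).

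Of the 9 genes, then, the order of the 4 groups differed from gene to gene. IDO1 ran from treated SK-MEL-5 through treated MALME-3M to the untreated groups, which do not differ beyond their counting error. WARS ran from treated SK-MEL-5 (6320 ± 107.1 CPM) through treated MALME-3M (4245 ± 166.5) and untreated SK-MEL-5 (538 ± 16.4) to untreated MALME-3M (238 ± 2.5; SD, n = 3 each), with no neighbours overlapping. AHR and AFMID were ordered by line, and within a line the groups did not pass the test.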

How the data were processed

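Total RNA of 12 libraries in 4 groups of 3 was analysed from 2 kinds of deposited tables. The gene tables hold whole-number read counts per gene, deposited without normalization, per the file headers. The transcript tables hold estimated counts and TPM (transcripts per 1e6 transcripts) per transcript, per the file headers. Per the submitters' processing notes, reads went through cutadapt, STAR, SAMtools, HTSeq and kallisto (no versions named) on hg38. Neither the gene annotation nor the strand setting is given in the sources used here. TPM was not used.

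Library sizes and tests leave out the 5 summary lines that name no gene. Relative to the gene counts of a library, these lines hold 7.47 to 13.7 times as many non-unique alignments and 0.533 to 0.850 times as many without a feature, with ambiguous reads at 4.19% to 4.54%. Reads were counted without molecular identifiers in these tables, so an interval or floor covers only the error of counting. Pairs of replicates differed by a chi-square of 6.35 to 19.3 per gene, so none was counted as 1 sample. The labels number no replicates, so the numbers only name libraries and no libraries were paired.

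The count test was run with edgeR 4.0.16 (R 4.3.3): filterByExpr with a minimum count of 10, TMM scaling, and a quasi-likelihood model with 1 mean per group over all 12 libraries (8 residual degrees of freedom, biological coefficient of variation 0.0955). Calls used a Benjamini-Hochberg adjusted p under 0.05 over 15810 genes. Each standard error is the log2 fold change divided by the root of its F, and CPM used TMM-scaled library sizes. Alternatives were RLE and upper-quartile scaling, no filter, DESeq2 1.42.0, a fit of only the libraries compared, the summed and rounded estimated counts of annotated transcripts, and leaving out each library. The fit was checked on simulated counts with known changes.

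Transcripts and gene positions were tied to symbols by a GENCODE annotation of GRCh38, and 49.9% to 55.2% of each library's estimated counts fell on annotated transcripts. Promoters came from a RefSeq table of GRCh38.p14. All 9 genes are named throughout. Of the wider lists, genes called with an absolute log2 fold change of at least 1 in either line are named, otherwise the 2 with the largest called change per list and line, and a few further list members are named for their role and were chosen after their values were seen. The 9 genes and the lists were chosen with earlier results of these data known. Of the listed symbols, 3 were not analysed here. Some further results are not reported here.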

Additional observations from a re-analysis of the deposited data

Results flagged for a closer look

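Of the tested genes on the lists described above, 8 had an IFN-γ effect that differed between the lines. These 8 were not worked out as a share of the tested list genes. The test was edgeR's quasi-likelihood test of the difference itself (MALME-3M minus SK-MEL-5, log2 scale, adjusted over all tested genes). Over all tested genes, 2.67% had a higher effect in MALME-3M and 1.79% a lower one. The effect was higher in MALME-3M for WARS by 0.60 ± 0.06 (SE, adjusted p = 1.56e-06), for SLC7A8 by 0.76 ± 0.15 (SE, adjusted p = 0.00386), for ATF3 by 1.46 ± 0.24 (SE, adjusted p = 0.000787) and for AHRR by 0.31 ± 0.09 (SE, adjusted p = 0.048). The AHRR call was lost under every other scaling, filter and tool tried and when any of 10 of the 12 libraries was left out. It was also higher for IRF1, a transcription factor induced by IFN-γ, by 1.08 ± 0.17 (SE, adjusted p = 0.000541). IRF1 averaged 253 ± 31 CPM in treated and 2.94 ± 0.56 CPM in untreated MALME-3M, and 204 ± 2.1 CPM in treated and 5.05 ± 0.77 CPM in untreated SK-MEL-5 (SD, n = 3 each).

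The effect was lower in MALME-3M for SLC7A11, with a difference of -1.02 ± 0.12 (SE, adjusted p = 1.92e-05), for ASNS with -0.53 ± 0.10 (SE, adjusted p = 0.00351) and for TAP1, a peptide transporter gene of antigen presentation, with -0.41 ± 0.11 (SE, adjusted p = 0.034, edgeR). ASNS averaged 29.1 ± 0.57 CPM in treated and 31.1 ± 0.27 CPM in untreated MALME-3M, and 47.0 ± 1.5 CPM in treated and 34.9 ± 3.6 CPM in untreated SK-MEL-5 (SD, n = 3 each). WDR25, which overlaps the WARS start and is on no list, also had a lower effect in MALME-3M. Its difference was -0.74 ± 0.20 (SE, adjusted p = 0.0355 by edgeR's quasi-likelihood test), and its reads cannot be told from those of WARS in their overlap. Line, dose and medium differ together in these tests and cannot be told apart.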

How the results depend on the processing

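Of 705 alternative fold changes of the 8 tested genes, 658 kept direction and call. Leaving out 1 library gave 1 to 2 genes with a higher change in MALME-3M (2 with all libraries), and 0 to 1 that fell in MALME-3M. The other-scaling, no-filter, DESeq2 and estimated-count settings each gave 1 gene with a higher change in MALME-3M. On estimated counts of annotated transcripts, 2 genes rose in MALME-3M (4 on gene counts), 3 were lower in untreated MALME-3M than in untreated SK-MEL-5 (5), and with IFN-γ 2 were higher (1) and 3 lower (6). Signs turned there for AFMID in SK-MEL-5 (-0.02), CYP1B1 in the difference (-0.37), and between the treated lines for WARS (0.22) and AHRR (0.72). They also turned for CYP1B1 in the difference with DESeq2 (-0.017) and AHRR between treated lines without a filter (0.011). Over leave-one-outs the values ran from -0.023 to 0.154 for AFMID and -0.19 to 1.70 for CYP1B1 in SK-MEL-5, -0.116 to 0.034 for AHR in MALME-3M, -1.30 to 0.60 for CYP1B1 in the difference, -3.14 to 0.00 for IDO1 and -0.53 to 0.15 for TDO2 between untreated lines, and -0.061 to 0.035 for AHRR between treated lines. In each case the cause was not tested. Of these, only WARS between the treated lines was called on gene counts.

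Over all genes, estimated counts gave 396 higher and 176 lower in SK-MEL-5 (946 and 1114 on gene counts), 527 and 415 in MALME-3M (1504 and 1386), 68 and 69 in the difference (422 and 283), 3743 lower between untreated lines (5877), and 3653 higher and 3758 lower between treated lines (5597 and 5749). DESeq2 gave 426 lower in the difference. Upper-quartile scaling split the difference 340 higher to 351 lower. Without untreated SK-MEL-5 replicate 2 or treated replicate 3, 655 and 665 fell in SK-MEL-5, and without treated MALME-3M replicate 1 or 3, 275 and 240 had a higher change in MALME-3M. No paired analysis was possible because the labels give no replicate numbers. Depth limits KMO, TDO2, CYP1B1 in SK-MEL-5 and IDO1 without IFN-γ, where single counts move a fold.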

Other observations

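The mitochondrial aminoacyl-tRNA synthetase genes, the organelle's counterparts of the WARS group, were looked up as well. Of 16 tested, 1 rose and 6 fell in SK-MEL-5, where 5.98% of all tested genes rose and 7.05% fell. In MALME-3M 1 rose and 2 fell, where 9.51% of all tested genes rose and 8.77% fell. NARS2, the asparaginyl enzyme, averaged 61.7 ± 4.7 CPM in treated and 78.5 ± 5.2 CPM in untreated SK-MEL-5, and 30.4 ± 3.5 CPM in treated and 38.8 ± 2.8 CPM in untreated MALME-3M (SD, n = 3 each). CARS2, the cysteinyl enzyme, averaged 40.1 ± 1.9 CPM in treated and 31.1 ± 2.3 CPM in untreated MALME-3M. NAPRT, which salvages nicotinic acid to NAD, rose in MALME-3M by a log2 fold change of 0.52 ± 0.16 (SE, adjusted p = 0.0276 by edgeR's quasi-likelihood test). MAOB, a monoamine oxidase, averaged 3.68 ± 0.99 CPM in treated and 1.68 ± 0.43 CPM in untreated MALME-3M.

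Across the 12 libraries, genes whose log2 CPM ran most like IDO1, among 14581 tested genes with a symbol, included PARP10 (Pearson r = 0.988), IRF8 (0.987), EIF2AK2 (0.984) and SOD2 (0.980). IRF8 averaged 23.8 CPM in treated and 0.0975 CPM in untreated SK-MEL-5, and 0.883 CPM in treated and 0.0174 CPM in untreated MALME-3M. Most like WARS were BANCR (0.993), CSF1 (0.989), GBP5 (0.989), ATP11A (0.988) and LGMN (0.988). LGMN, which encodes the protease legumain, averaged 185.5 CPM in treated and 48.5 CPM in untreated SK-MEL-5, and 115.8 CPM in treated and 28.4 CPM in untreated MALME-3M. The 12 libraries share 4 groups and are not 12 independent points, so these values only describe likeness.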
